A study of Bos grunniens and Bos grunniens x Bos taurus with 12 samples.

Results

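The piRNA pathway genes described here are PIWIL1, PIWIL2, PIWIL4, DDX4, MAEL, MOV10L1, ASZ1, TDRD1, TDRD6 and TDRD9, and their translation level was followed in the testes of yak and of cattle–yak. They were taken as the genes that carry these symbols in the deposited tables, which identify 20965 genes by Ensembl identifier and give a symbol for 13662 of them. Of the 10 genes, 8 were found in this way. DDX4, the VASA helicase of germ cells, and MOV10L1, the helicase that starts piRNA processing, were not matched to a symbol and are in none of the counts. A row without a symbol whose description names Mov10l1 is given separately. All 8 genes found passed the filter on low counts in every comparison.

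Ribosome footprints, the stretches of mRNA covered by translating ribosomes, were sequenced (Ribo-seq) from whole testis of 3 animals in each of 4 groups. The yak groups were 6 months old (juvenile), 18 months old (puberty) and 4 years old (sexual maturity). Cattle–yak, the infertile male hybrid of Jersey cattle sires and Gannan yak dams, are labelled as 4 years old and sexually mature. The labels name no treatment or engineered allele in any group. The methods state that the testes of the 4-year yak were taken after euthanasia and those of cattle–yak by surgical castration, whereas the labels give castration for all groups. Each animal gave 1 library, and p-values therefore measure the spread between animals and between preparations together. Reads of the hybrid were aligned to the yak genome. The paper reports a higher share of aligned reads in cattle–yak than in the adult yak, and a shorter main length of footprints. The part of these in the differences below was not tested.

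PIWI proteins bind piRNAs, small RNAs of the germ line that guide the silencing of transposons. In the mammalian testis PIWIL2 and PIWIL4 are known from early male germ cells, where PIWIL4 directs DNA methylation at transposons, and PIWIL1 appears with the pachytene piRNAs of spermatocytes and round spermatids. MAEL, ASZ1 and the tudor domain proteins build the granules in which piRNAs are made and loaded, and the chromatoid body of spermatids is the latest of these granules.

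Libraries held 16304058 to 52616039 counts in genes, lowest in the 4-year yak and highest in cattle–yak. The markers of the cell types were read first, since each library is a mixture of the cells of the testis (the plot of summed marker levels shows 5 of the lists). The markers of round spermatids, 9 of the 10 listed being in the tables, summed to 0.423–1.32 CPM (counts scaled to a common library size) at 6 months, 2000–2190 CPM at 4 years and 6.56–22.8 CPM in cattle–yak. TXNDC8, SUN5 and SPACA4, genes of spermatid acrosome and nuclear envelope, had no count in any library of 6 months. The 6 of 10 markers of elongating spermatids summed to 0.814–1.45 CPM, 3030–3690 CPM and 1.4–9.01 CPM in the same order, and HMGB4 had no count at 6 months. The 12 of 14 markers of spermatocytes summed to 167–237 CPM, 1830–1930 CPM and 603–1070 CPM. The 7 of 13 markers of spermatogonia summed to 271–402 CPM, 466–607 CPM and 833–915 CPM, and the 7 of 10 markers of Sertoli cells, the somatic nurse cells, to 490–553 CPM, 209–315 CPM and 742–805 CPM.

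Yak of 18 months did not form a uniform group. In replicate 2 the round spermatid markers summed to 1000 CPM, against 1.72 CPM in replicate 1 and 7.01 CPM in replicate 3. The elongating spermatid markers gave 2180 CPM against 2.23 and 6.23 CPM, and the spermatocyte markers 1400 CPM against 319 and 371 CPM. Replicate 2 therefore stood near the adult yak in these sums, and the other two stood near the juvenile yak in the markers of spermatids. For 10 of the 12 spermatocyte markers every library of 18 months was above every library of 6 months, against 16.2% of all genes tested. Whether replicate 2 came from a more advanced animal or was exchanged with another sample was not tested. Every value at 18 months is read with that limit. Results that rest on this age are given with and without replicate 2. In bulk testis, fewer cells of a type and fewer ribosome-bound mRNAs per cell cannot be told apart.

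**Figure D1:**
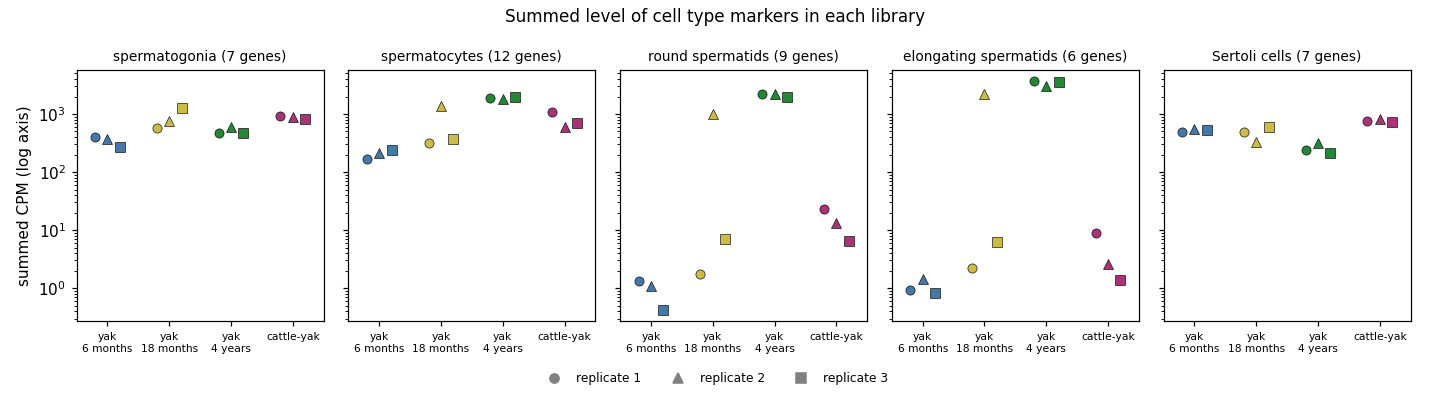
Summed CPM (log axis) of the markers of 5 cell types in each of the 12 libraries, 1 point per animal with the shape giving the replicate number. Round spermatid markers were at 1000 CPM in replicate 2 of the 18-month yak and at 7.01 CPM or less in the other two, at 2000 CPM or more in the 4-year yak and at 22.8 CPM or less in cattle–yak.

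The PIWI proteins themselves followed different courses. PIWIL2 (ENSBGRG00000010031), the PIWI protein present from early male germ cells on, was read at 4.34, 4.75 and 1.69 FPKM (fragments scaled to gene length and library size) in the 3 yak of 6 months and at 14.4, 36.51 and 36.74 FPKM at 18 months. It was at 35.76, 40.79 and 42.05 FPKM at 4 years and at 29.32, 26.35 and 26.75 FPKM in cattle–yak. The juvenile yak lay below all other animals, and the hybrids lay between the juvenile and the adult yak without overlap with either.

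PIWIL4 (ENSBGRG00000010477), the nuclear PIWI protein of early germ cells, stayed at a low level per length throughout. Its values were 0.65, 1.76 and 0.98 FPKM in the juvenile yak and 4.02, 1.76 and 4.06 FPKM in the pubertal yak. Adult yak gave 1.09, 1.47 and 1.54 FPKM and cattle–yak 1.79, 1.18 and 1.44 FPKM. The highest levels were those of replicates 1 and 3 of the 18-month yak, while replicate 2, the library rich in spermatid markers, was the lowest of its age. PIWIL4 was the only member with that order at 18 months.

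PIWIL1 (ENSBGRG00000009726), the PIWI protein of pachytene spermatocytes and round spermatids, had the widest range. At 6 months it was read at 0.27, 0.22 and 0.04 FPKM, which rested on 18, 21 and 3 counts. At 18 months the values were 0.13, 206.27 and 0.98 FPKM, from 8, 11494 and 63 counts. The 4-year yak gave 316.09, 295.39 and 361.09 FPKM, and cattle–yak gave 31.86, 12.67 and 7.4 FPKM, from 4382, 1279 and 742 counts. Every hybrid lay far below every adult yak and above every juvenile yak, and replicate 2 of the 18-month yak lay above every hybrid.

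The partners that build the piRNA granules came next. ASZ1 (ENSBGRG00000003561), a mitochondrial anchor of the granule between mitochondria, was at 2.73, 7.06 and 3.14 FPKM at 6 months and 14.51, 47.32 and 35.05 FPKM at 18 months. It was at 52.73, 55.31 and 56.31 FPKM at 4 years and 41.77, 29.98 and 26.84 FPKM in cattle–yak. MAEL (ENSBGRG00000006416), a granule protein needed for transposon silencing, was at 1.98, 5.37 and 2.01 FPKM, then at 15.49, 80.58 and 41.94 FPKM. The adult yak gave 139.82, 124.35 and 122.1 FPKM of MAEL and the hybrids 38.21, 31.9 and 30.85 FPKM. For both genes the hybrids did not overlap the adult or the juvenile yak.

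Among the tudor domain proteins, which bind methylated arginines of PIWI proteins, TDRD9 (ENSBGRG00000004595), a helicase that works with PIWIL4, was at 1.11, 2.52 and 0.74 FPKM at 6 months and at 8.49, 70.5 and 20.56 FPKM at 18 months. It was at 82.58, 104.37 and 114.13 FPKM at 4 years and at 22.33, 19.72 and 20.86 FPKM in cattle–yak. TDRD1 (ENSBGRG00000025091), the partner of PIWIL2 in the granule between mitochondria, was at 0.55, 1.94 and 0.6 FPKM and at 4.81, 55.07 and 14.09 FPKM at the younger ages. Its adult values were 77.37, 82.2 and 76.02 FPKM and its hybrid values 19.26, 14.06 and 10.21 FPKM. Both genes thus had hybrid levels clear of the adult yak.

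TDRD6 (ENSBGRG00000025033), a scaffold of the chromatoid body, was at 0.41, 0.77 and 0.31 FPKM at 6 months and at 1.78, 45.29 and 3.01 FPKM at 18 months. The adult yak gave 73.21, 65.38 and 85.97 FPKM, and the hybrids 4.45, 2.56 and 2.32 FPKM. Replicates 2 and 3 of cattle–yak lay between replicates 1 and 3 of the 18-month yak, and replicate 1 lay above both of these. Replicate 1 of cattle–yak had the highest FPKM of the 3 hybrids for all 8 genes, a pattern noticed after the values were seen. It also had the highest summed markers of spermatocytes (1070 CPM), round spermatids (22.8 CPM) and elongating spermatids (9.01 CPM), and the part of these cells in the gene levels was not tested.

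**Figure D2:**
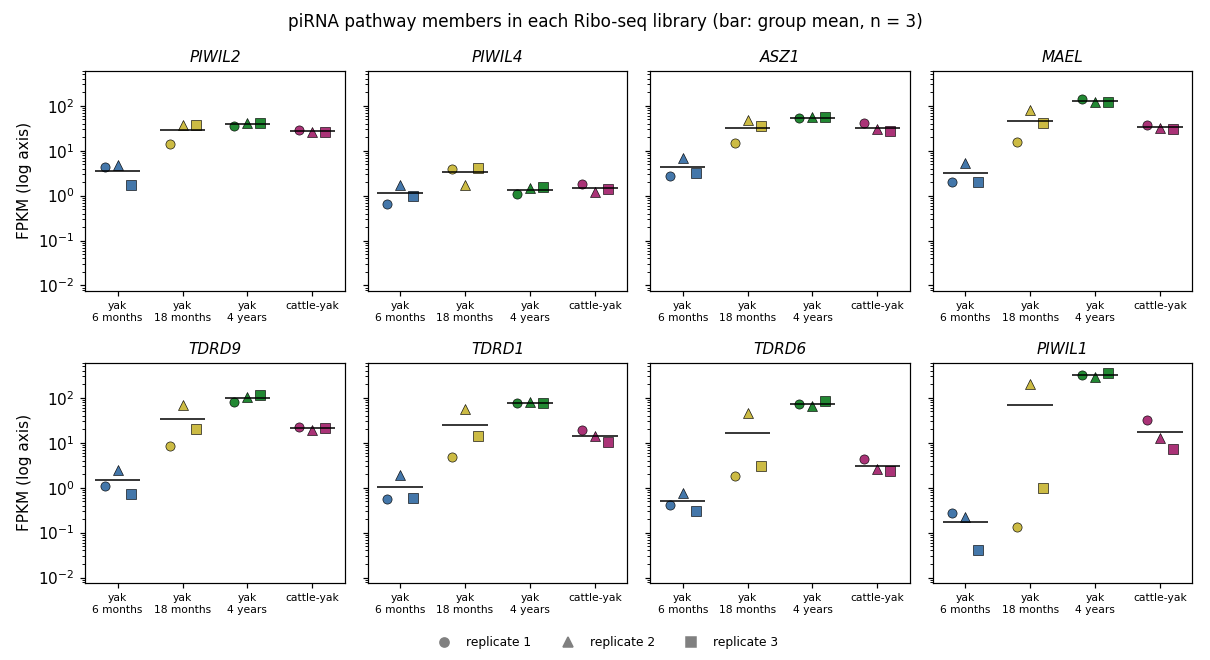
FPKM (log axis) of the 8 genes in each of the 12 libraries, with bars at the mean of each group (n = 3). Replicate 2 of the 18-month yak sits apart from the other two by most for PIWIL1 (206.27 against 0.13 and 0.98 FPKM), and PIWIL4 stays between 0.65 and 4.06 FPKM in all groups.

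The order of the genes by FPKM, a level per length, changed between groups. In the 4-year yak PIWIL1 was highest, at 324.2 ± 33.59 FPKM (mean ± SD, n = 3), followed by MAEL at 128.8 ± 9.647 FPKM and TDRD9 at 100.4 ± 16.15 FPKM. TDRD1 at 78.53 ± 3.249 FPKM and TDRD6 at 74.85 ± 10.39 FPKM overlapped each other. ASZ1 at 54.78 ± 1.847 FPKM and PIWIL2 at 39.53 ± 3.328 FPKM were lower and did not overlap, and PIWIL4 at 1.367 ± 0.2421 FPKM was last.

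In cattle–yak the order was flatter. MAEL at 33.65 ± 3.981 FPKM, ASZ1 at 32.86 ± 7.872 FPKM and PIWIL2 at 27.47 ± 1.612 FPKM led. MAEL and PIWIL2 did not overlap each other, while ASZ1 overlapped both. TDRD9 stood at 20.97 ± 1.308 FPKM. PIWIL1 at 17.31 ± 12.87 FPKM overlapped every one of these, and TDRD1 too, which stood at 14.51 ± 4.542 FPKM. TDRD6 at 3.11 ± 1.167 FPKM was below all of them and above PIWIL4 at 1.47 ± 0.3061 FPKM. In the juvenile yak ASZ1 at 4.31 ± 2.39 FPKM and PIWIL2 at 3.593 ± 1.661 FPKM were highest by mean, with MAEL at 3.12 ± 1.949 FPKM in the same range, and PIWIL1 at 0.1767 ± 0.121 FPKM was lowest.

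The comparison of cattle–yak with yak of 4 years, both labelled as sexually mature, asks how translation in the sterile hybrid testis differs from that in the fertile one. TDRD6 and PIWIL1 were the most reduced of the 8 genes in cattle–yak, with TDRD1, TDRD9 and MAEL after them. TDRD6 fell by 4.57 on the log2 scale (SE 0.296, adjusted p = 5.31e-06, edgeR) and PIWIL1 fell by 4.20 (SE 0.525, adjusted p = 0.000185). The decreases were 2.42 for TDRD1 (log2 fold change -2.42, SE 0.234, adjusted p = 4.33e-05), 2.24 for TDRD9 (-2.24, SE 0.146, adjusted p = 5.34e-06) and 1.93 for MAEL (-1.93, SE 0.144, adjusted p = 1.07e-05). A gene was counted as a DTG (differentially translated gene) where the adjusted p was below 0.05 and the log2 fold change at least 1 in size. By this rule 5 of the 8 genes were lower in cattle–yak, against 27% of all 16498 genes tested, and 0 were higher, against 17.1%. DESeq2 called 5 lower (27.4% of all genes) and 0 higher (15.9%). At an unadjusted p below 0.05 edgeR gave 7 lower (35.6% of all genes) and 0 higher (33.3%).

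ASZ1 and PIWIL2 passed the adjusted p but not the fold. The log2 fold change was -0.72 for ASZ1 (SE 0.182, adjusted p = 0.008, edgeR) and -0.46 for PIWIL2 (SE 0.117, adjusted p = 0.0083). PIWIL4 gave 0.12 (SE 0.276, adjusted p = 0.713), and its groups overlapped. For the other 7 genes every hybrid was below every adult yak, against 36.3% of all genes tested. The median log2 fold change of the 8 genes was -2.09, and that of all genes tested was -0.002195.

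The 5 DTGs were called in each of the 6 tests that left out 1 library, where 24.2–27.2% of all genes were called lower. In these tests the log2 fold change of PIWIL1 ran from -5.02 to -3.82 and that of TDRD6 from -4.95 to -4.38. With all 12 libraries in 1 edgeR model, which estimates 1 spread for all groups and called 23.3% of all genes lower, 4 of the 8 genes were lower. PIWIL1 was no longer called there, at a log2 fold change of -4.203 in place of -4.198 (adjusted p = 0.0759). The markers of spermatids moved with these genes. All 9 round spermatid and all 6 elongating spermatid markers were lower in cattle–yak, with median log2 fold changes of -7.88 and -9.96. Of the 12 spermatocyte markers 7 were lower, with a median of -1.18, and of the 7 spermatogonial markers 3 were higher and 1 was lower. Among the somatic cells, 4 of 7 markers of Sertoli cells (median 1.47) and all 3 matched of the 8 listed markers of Leydig cells (2.50) were higher in cattle–yak. So were 6 of 6 of peritubular myoid cells (2.16), against 17.1% of all genes called higher. Of the 6 endothelial markers 1 was higher and 1 was lower (median 0.39). Of the 6 macrophage markers 0 were higher and 2 were lower (median -0.17), against 27% of all genes called lower. The part of these cells in the differences of the piRNA genes was not tested.

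A row without a symbol, ENSBGRG00000002468, is described in the tables as a putative Mov10l1 helicase. It is outside the rule by symbol and in none of the counts of the 8 genes. Its level was 0.1–0.93 FPKM at 6 months and 1.91–11.9 FPKM at 18 months, then 12.76–18.58 FPKM in adult yak and 5.14–7.56 FPKM in cattle–yak. Against the 4-year yak it fell by 1.21 in cattle–yak on the log2 scale (SE 0.217, adjusted p = 0.00136, edgeR). It was called in each of the 6 tests that left out 1 library, and over all the alternatives its adjusted p ran from 7.3e-07 to 0.152, so that at least 1 of them lost the call.

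**Figure D3:**
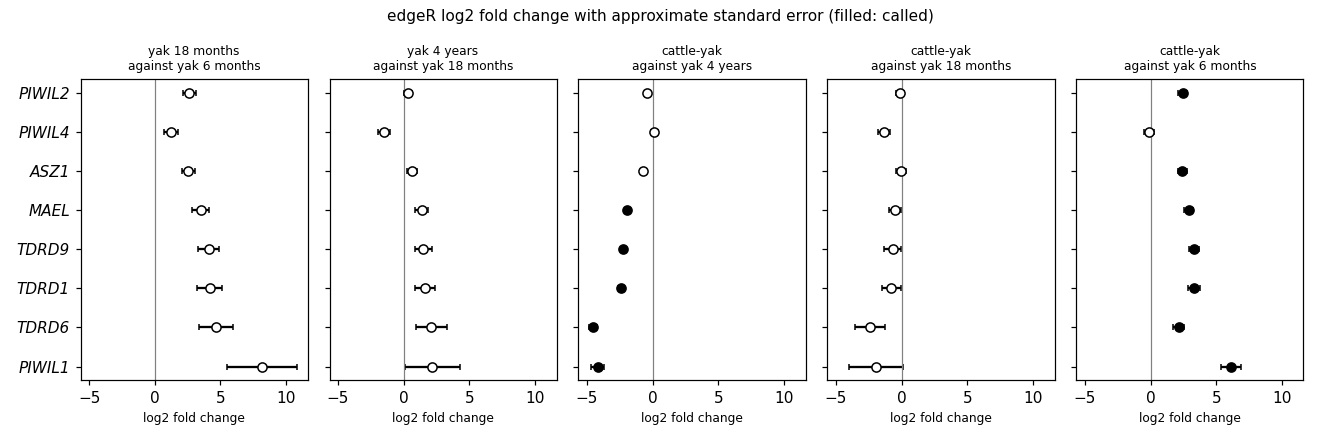
Log2 fold change of the 8 genes in the 5 comparisons from edgeR, with bars of 1 approximate standard error and filled points for DTGs. In cattle–yak against the 4-year yak 5 genes are filled and lie between -4.57 and -1.93, whereas PIWIL2, ASZ1 and PIWIL4 stay between -0.72 and 0.12.

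Against the juvenile yak, cattle–yak had higher translation levels of 7 of the 8 genes, PIWIL4 being the exception. Age and cross differ together in this comparison. PIWIL1 was higher by a log2 fold change of 6.11 (SE 0.751, adjusted p = 0.000266, edgeR), TDRD9 by 3.32, TDRD1 by 3.29, MAEL by 2.91, PIWIL2 by 2.44, ASZ1 by 2.42 and TDRD6 by 2.13 (adjusted p from 0.000213 to 0.00206). PIWIL4 gave -0.14 (SE 0.365, adjusted p = 0.768), and this sign turned with scaling by library size alone (0.37). The 7 DTGs compare with 18.1% of the 15571 genes tested called higher, and the same 7 genes did not overlap between groups, against 34.5%. The 7 remained DTGs in each of the 6 tests without 1 library, where 16.6–17.8% of all genes were called higher. In the model of all 12 libraries TDRD6 was not called and 6 were (14.9% of all genes). Scaling by library size alone moved the median of all genes from -0.02 to 0.52, and with it the calls over all genes went from 2823 higher and 3067 lower to 4867 higher and 1875 lower.

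This comparison and the previous one share the hybrid libraries, so the values are set side by side only. PIWIL1 was at -4.20 against the adult and at 6.11 against the juvenile yak. TDRD6 was at -4.57 and 2.13, TDRD9 at -2.24 and 3.32, and TDRD1 at -2.42 and 3.29. MAEL was at -1.93 and 2.91, ASZ1 at -0.72 and 2.42, and PIWIL2 at -0.46 and 2.44. By the size of the log2 fold change, TDRD6 was the only one of these 7 genes that was nearer to the juvenile yak than to the adult yak in the hybrid, also when scaled by library size alone (2.65 against the juvenile yak).

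The comparison of yak of 18 months with yak of 6 months follows the pathway into puberty. No gene of the 8 was a DTG by edgeR, where 0.0202% of the 14874 genes tested were called higher and 0.0471% lower. At an unadjusted p below 0.05 all 8 were higher, against 14.3% of all genes. DESeq2 called 5 of them higher (ASZ1, MAEL, PIWIL2, TDRD1 and TDRD9) and 0 lower, against 7.28% of all genes called higher. It gave no adjusted p for PIWIL1 and TDRD6, so these could not be called, and PIWIL4 was not called (DESeq2 adjusted p = 0.0987). For 6 of the 8 genes every library of 18 months was above every library of 6 months, against 16.2% of all genes, and PIWIL1 and PIWIL4 were those that overlapped.

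The log2 fold changes at this step had large errors. PIWIL1 gave 8.17 (SE 2.69, adjusted p = 0.131, edgeR), TDRD6 4.66 (SE 1.28, adjusted p = 0.0992), TDRD1 4.18 (SE 0.942, adjusted p = 0.0732) and TDRD9 4.10 (SE 0.828, adjusted p = 0.0633). MAEL gave 3.51 (SE 0.638, adjusted p = 0.0588), PIWIL2 2.62 (SE 0.498, adjusted p = 0.0596), ASZ1 2.55 (SE 0.49, adjusted p = 0.0596) and PIWIL4 1.24 (SE 0.502, adjusted p = 0.181). Library size alone as the scaling moved the median of all genes from 0.05 to 0.42 and turned no sign of the 8 genes.

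Replicate 2 of the 18-month yak decided the value of PIWIL1. Without it the log2 fold change of PIWIL1 was 1.26 (adjusted p = 0.506, edgeR) and that of TDRD6 was 1.97 (adjusted p = 0.0693). PIWIL2 kept 2.46 (adjusted p = 0.067), ASZ1 2.21 (adjusted p = 0.0668) and MAEL 2.88 (adjusted p = 0.0531). None was called without replicate 2, where 0.226% of all genes were called higher. Without replicate 1, 7 of the 8 were called higher, PIWIL4 not among them, where 8.7% of all genes were.

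From 18 months to 4 years none of the 8 genes was a DTG by edgeR, where 0% of the 16175 genes tested were called higher and 0.0371% lower. At an unadjusted p below 0.05 MAEL was higher (11.8% of all genes) and PIWIL4 lower (23.6%). DESeq2 called MAEL, TDRD1 and TDRD9 higher (13% of all genes) and PIWIL4 lower (14.3%). For 6 genes, all but PIWIL2 and PIWIL4, every adult yak was above every 18-month yak, against 29% of all genes. PIWIL4 was below in every adult, against 27.9%.

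Leaving out replicate 2 of the 18-month yak changed this step most. PIWIL1 then rose by a log2 fold change of 9.02 (adjusted p = 0.000108, edgeR), against 2.19 (SE 2.12, adjusted p = 0.438) with it. TDRD6 rose by 4.77 in place of 2.10, TDRD1 by 2.89 in place of 1.59, TDRD9 by 2.61 in place of 1.504 and MAEL by 1.997 in place of 1.376. PIWIL4 fell by 1.79 (adjusted p = 0.00181) in place of 1.49 (log2 fold change -1.49, adjusted p = 0.0923). These 5 genes called higher compare with 26.1% of all genes without replicate 2, and PIWIL4 with 18.5% called lower. PIWIL2 gave 0.46 (adjusted p = 0.236) and ASZ1 0.97 (adjusted p = 0.0261), short of the fold.

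Cattle–yak against yak of 18 months, where age and cross again differ together, gave no DTG among the 8 genes, with 3.45% of the 15702 genes tested called higher and 2.34% lower. All 8 genes overlapped between the groups, while 19.7% of all genes did not overlap and were higher and 19.2% did not overlap and were lower. At an unadjusted p below 0.05, 0 were higher and PIWIL4 was lower (15.8% of all genes). DESeq2 called PIWIL4 lower (9.34% of all genes) and 0 higher. The log2 fold change of PIWIL1 was -1.98 (SE 2.04, adjusted p = 0.531, edgeR) and that of TDRD6 was -2.43 (SE 1.15, adjusted p = 0.205).

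Without replicate 2 the sign of PIWIL1 turned. PIWIL1 was then higher in cattle–yak by 4.80 (adjusted p = 0.0218, edgeR), the only gene of the 8 called higher, against 7.22% of all genes. PIWIL4 was lower (log2 fold change -1.68, adjusted p = 0.0144), against 8.04%. The other 6 genes gave log2 fold changes between -0.01 (PIWIL2) and 0.46 (TDRD1), none of them called. TDRD6 gave 0.18 (adjusted p = 0.717), and whether it differed from PIWIL1 was not tested.

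**Figure D4:**
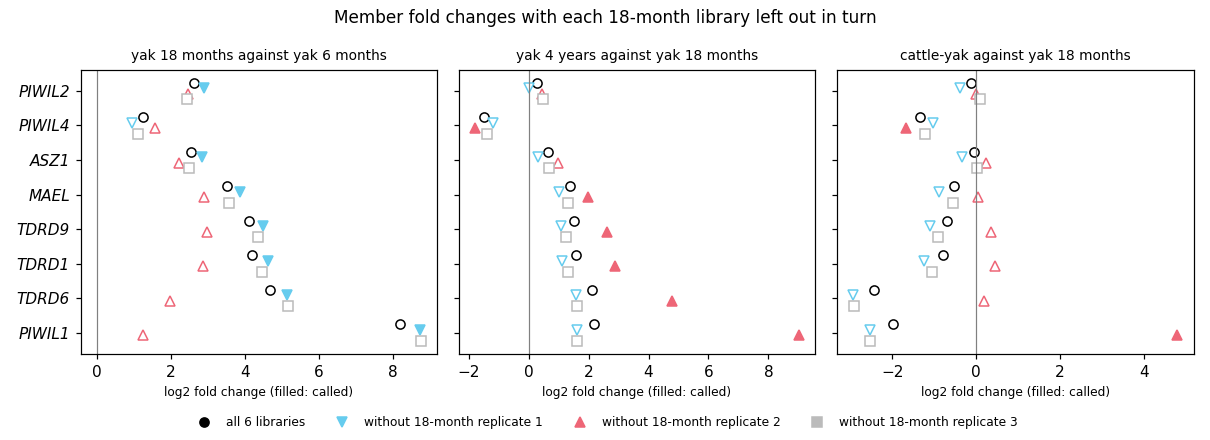
Log2 fold change of the 8 genes in the 3 comparisons that use the 18-month yak, with all 6 libraries and without each 18-month library in turn, filled where the gene was a DTG. PIWIL1 moves most without replicate 2, from 8.17 to 1.26, from 2.19 to 9.02 and from -1.98 to 4.80.

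Ratios of counts within a library, which no scaling between libraries can change, set the other members against PIWIL2. They are not per length, so only libraries can be compared. For every 100 counts of PIWIL2, PIWIL1 had 5.521, 4.086 and 1.974 counts at 6 months, the last with an exact 95% interval of 0.403–5.88 for counting error only. It had 0.7976, 505.2 and 2.386 counts at 18 months and 788.3, 651.2 and 762.1 in the adult yak. The hybrids had 93.04, 41.84 and 23.6. The hybrids lay between the juvenile and the adult yak, and replicate 2 of the 18-month yak stood next to the adult yak.

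The mean log2 ratio of PIWIL1 to PIWIL2 was lower by 4.02 in cattle–yak than in the 4-year yak (difference -4.02, two-sided exact permutation p = 0.1, n = 3 per group). It was higher by 3.67 in cattle–yak than in the juvenile yak (exact permutation p = 0.1) and by 6.21 at 4 years than at 18 months (exact permutation p = 0.1). With 3 against 3 libraries 0.1 is the smallest p that the test allows, and over the 5 comparisons these values became 0.167 after Benjamini-Hochberg adjustment. From 6 to 18 months the difference was 1.48 (exact permutation p = 0.9, adjusted 0.9), and without replicate 2 of the 18-month yak it was -1.36 (exact permutation p = 0.3). Cattle–yak against the 18-month yak gave 2.19 (exact permutation p = 0.5, adjusted 0.625) and 5.03 without replicate 2 (exact permutation p = 0.1).

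TDRD6 fell about as far as PIWIL1 relative to PIWIL2 in cattle–yak against the 4-year yak (differences in mean log2 ratio -4.18 and -4.02). For every 100 counts of PIWIL2 it had 344.4–436.5 counts in the 4-year yak and 17.59–30.93 in cattle–yak, which overlapped the 20.25–36.84 of the juvenile yak. MAEL had 131.1–177.7 counts at 4 years and 49.84–56.48 in cattle–yak, overlapping 20.86–53.29 at 6 months. TDRD9 had 336.1–391.7 at 4 years and 106.3–108.8 in cattle–yak, above the 37.12–77.63 of the juvenile yak, and TDRD1 had 220.1–264.7 at 4 years and 44.78–77.18 in cattle–yak, overlapping 15.64–50.39 at 6 months. ASZ1, at 76.04–84.14 and 54.9–78.07, overlapped between adult yak and hybrid, and the 34.66–105.3 of the juvenile yak overlapped both.

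PIWIL4 was also set against PIWIL2, whose own mean level was 3.593 FPKM at 6 months and 29.22 FPKM at 18 months. For every 100 counts of PIWIL2 it had 13.19–51.32 counts at 6 months, then 4.264–24.63 in the yak of 18 months and 2.68–3.218 in those of 4 years. Cattle–yak had 3.86–5.159. The ranges at 6 and 18 months overlapped, and the hybrids were above the adult yak and below the juvenile yak without overlap. PIWIL1 relative to TDRD6, a ratio chosen after the values were seen, was 175.7–189.1 counts per 100 at 4 years and 134.2–300.8 in cattle–yak. The same ratio was 5.357–27.27 at 6 months and 3.019, 190.4 and 13.67 in the 3 yak of 18 months.

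**Figure D5:**
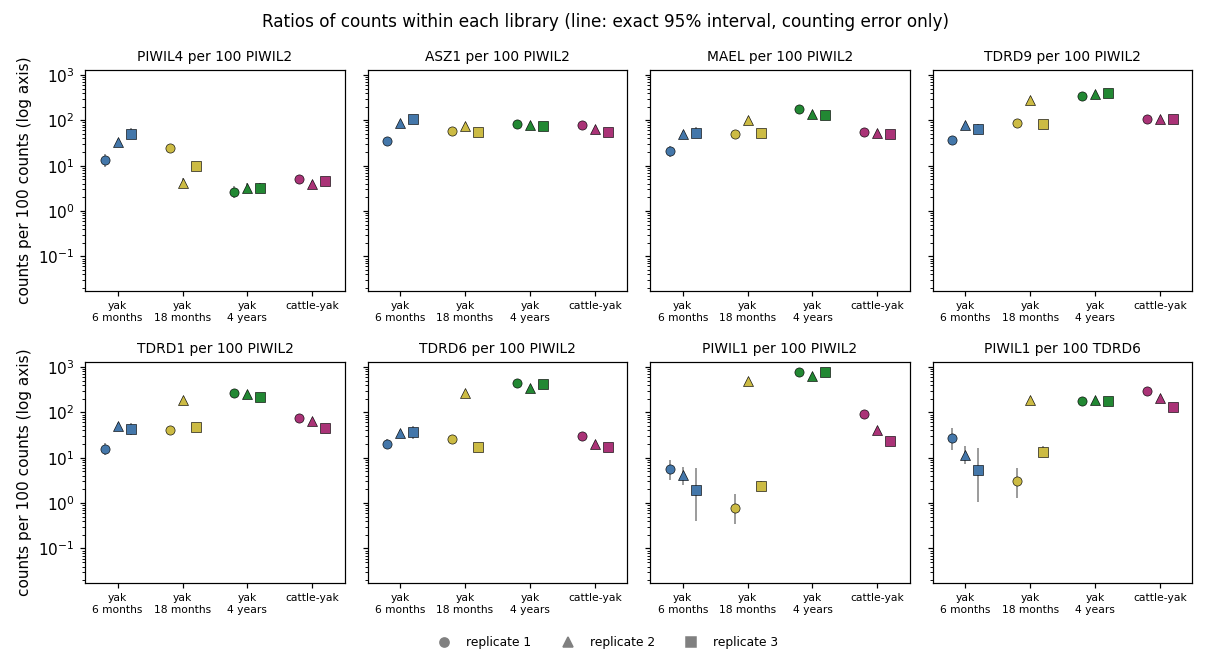
Counts of a gene per 100 counts of PIWIL2 within each library, and of PIWIL1 per 100 counts of TDRD6 (log axis), with exact 95% intervals for counting error only. PIWIL1 per 100 PIWIL2 is 651.2–788.3 in the 4-year yak and 23.6–93.04 in cattle–yak, whereas ASZ1 per 100 PIWIL2 overlaps between these groups.

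Of a list of 25 other genes of the piRNA pathway, 21 were in the tables, and TDRD12, EXD1, MYBL1 and DNMT3L were not matched. In cattle–yak against the 4-year yak 13 of the 21 were lower (27% of all genes), 0 were higher (17.1%) and 8 were not called, with a median log2 fold change of -1.84. The counts without 1 library were 12 or 13 lower (24.2–27.2% of all genes) and 0 higher (16.4–18.3%). DESeq2 gave 13 lower (27.4% of all genes) and 0 higher (15.9%). TCFL5, a transcription factor of pachytene piRNA genes, was the most reduced and fell by 4.99 on the log2 scale (SE 0.317, adjusted p = 4.8e-06, edgeR), from 71.03 ± 22.3 FPKM to 2.213 ± 0.59 FPKM (mean ± SD, n = 3).

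The next in size were further tudor domain proteins and PIWI cofactors. TDRD5 fell by 3.78 (193.2 ± 20.7 to 14.03 ± 7.37 FPKM) and TDRD15 by 3.25, though TDRD15 was only at 3.233 ± 1.1 FPKM in the adult yak. TEX15, which acts with PIWIL4 in DNA methylation, fell by 2.81. GTSF1, a cofactor of PIWI cleavage, fell by 2.78 (449.6 ± 81.2 to 64.87 ± 12.9 FPKM), and RNF17, a tudor domain protein of germ cells, fell by 2.64. PLD6, the mitochondrial nuclease of piRNA processing, fell by 2.38 and FKBP6, a co-chaperone of PIWI loading, by 2.24 (adjusted p of these 7 from 1.1e-05 to 0.000258, edgeR).

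The 8 genes not called were PIWIL3, HENMT1, TDRD3, GPAT2, BTBD18, SPOCD1, PRMT5 and WDR77. Their log2 fold changes ran from -0.28 (TDRD3) to 0.41 (HENMT1, the methylase of piRNA ends, adjusted p = 0.019, edgeR). GPAT2, a mitochondrial partner of PIWIL2, was at 9.987 ± 0.792 FPKM in cattle–yak and 10.77 ± 1.9 FPKM in the adult yak. SPOCD1, a nuclear partner of PIWIL4, was at 9.293 ± 0.787 and 8.743 ± 1.8 FPKM. PRMT5 and WDR77, the arginine methylase complex that modifies PIWI proteins, gave 0.22 (SE 0.128) and -0.08 (SE 0.147).

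From 6 to 18 months 0 of the 20 genes of this list that were tested were called by edgeR, with a median of 1.91. At an unadjusted p below 0.05, 15 were higher (14.3% of all genes) and 0 lower (11.5%), and DESeq2 called 10 higher (7.28%). Without 18-month replicate 1 edgeR called 11 higher (8.7% of all genes), and without replicate 2 it called 0 (0.226%). From 18 months to 4 years edgeR called 0 of 21, with a median of 1.38, while 4 were higher (11.8% of all genes) and 2 lower (23.6%) at an unadjusted p below 0.05. DESeq2 called 9 higher (13% of all genes) and 1 lower (14.3%), and without 18-month replicate 2 edgeR called 12 higher (26.1%) and 2 lower (18.5%). Cattle–yak had 12 higher (18.1% of all genes) and 1 lower (19.7%) against the juvenile yak. Against the 18-month yak it had 0 higher (3.45%) and 1 lower (2.34%), and without replicate 2 it had 3 higher (7.22%) and 1 lower (8.04%). With all 6 libraries, 2 were higher (14.5% of all genes) and 2 lower (15.8%) at an unadjusted p below 0.05. DESeq2 called 1 higher (6.46%) and 2 lower (9.34%). MORC1, a repressor of transposons, was the gene that edgeR called lower against the juvenile and the 18-month yak. The call against the 18-month yak was lost without any 1 of the 3 hybrid libraries, as was every call over all genes (0 higher and 0 lower). MORC1 was also lower against the 4-year yak (log2 fold change -1.85, adjusted p = 0.00568, edgeR). Its level was low, with means of 0.1767 FPKM in cattle–yak, 0.8733 FPKM at 6 months, 1.68 FPKM at 18 months and 0.6333 FPKM at 4 years.

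Over the 12 libraries, the 5 genes whose log2 CPM was most like that of PIWIL1, among 7021 genes above the median level, were PSME4, NUP210L, HORMAD2, NUP42 and RHPN2, with Pearson's r from 0.981 to 0.984. HORMAD2 is a protein of meiotic chromosome axes and PSME4 an activator of the proteasome. The genes most like PIWIL2 were ZYG11A, MET, RBM46, STK31 and APBA1, with r from 0.959 to 0.975, and STK31 is itself a tudor domain protein of germ cells. The 12 points share their groups, so these correlations describe the pattern across groups and carry no test.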

How the data were processed

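Ribo-seq libraries of 12 testes were compared in 4 groups of 3. For the adult yak and cattle–yak, the methods state that the authors used fastp to filter reads, Bowtie2 against rRNA and BLAST against further small RNA, and that footprints were aligned with STAR to the yak genome BosGru. The labels name Bowtie2 and RSEM for all 12 libraries. RSEM gave the authors an expected count per gene, which is deposited as a whole number, not normalized. The deposited FPKM divides it by gene length and library total. The authors' own fold changes, p-values, FDR and group means were not used. Unnamed rows stayed in the tests under their identifiers. Members, lists and tests were chosen with earlier results of these data known.

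After filterByExpr and TMM scaling, the 6 libraries of each comparison were tested with edgeR's quasi-likelihood test and Benjamini-Hochberg adjustment over all genes tested (R 4.3.3, edgeR 4.0.16). The SE is the log2 fold change divided by the square root of F. Ratios of counts used a two-sided exact permutation test of mean log2 ratios, and intervals were exact binomial at 95%. Alternatives were DESeq2 1.42.0, other scalings, no filter, all 12 libraries in 1 model, limma 3.58.1 on log2(FPKM + 1) or log2(FPKM + 0.1), a block on replicate number, and leaving out libraries 1 at a time. The edgeR step was tested on simulated data. All 10 members were named, and of the other pathway genes the 8 DTGs largest in size. Figures used Python 3.11.15 and matplotlib 3.10.9.

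Total counts were 25816963–37167651 in yak of 6 months, 21309151–24542362 in yak of 18 months, 16304058–17862516 in yak of 4 years and 38437889–52616039 in cattle–yak. Replicates differed beyond sampling noise (chi-square of 27.69 or more for each degree of freedom). No sequence was printed and no position given, since the reference table used here is of another assembly.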

Additional observations from a re-analysis of the deposited data

How the results depend on the processing

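In cattle–yak against the 4-year and the 6-month yak, each count of the 8 genes called stayed within 1.5 times the reported one. Over all genes the calls against the 6-month yak, 2823 higher and 3067 lower, became 4867 and 1875 by library size alone, 3856 and 1355 with limma on log2(FPKM + 1) and 4966 and 1867 with log2(FPKM + 0.1). Against the 4-year yak PIWIL4, not called, ran from -0.0622 (without cattle–yak replicate 1) to 0.269 without 1 library. Calls at the 18-month age depended on the test, and the cause was not tested. From 6 to 18 months the 0 genes called higher became 5 with DESeq2 (7.28% of all genes) and 7 with all 12 libraries in 1 model (10.8%). They became 2 with limma on log2(FPKM + 0.1) (1.9%), 4 when replicate number was a block (1.58%) and 0 to 7 without 1 library (0% to 8.7%). From 18 months to 4 years the 0 higher became 3 with DESeq2 (13%) and 1 with all 12 libraries (6.63%), and 0 to 5 without 1 library (0% to 26.1%). The 0 lower became 1 with each of DESeq2 (14.3%) and all 12 libraries (14%), and 0 to 1 without 1 library (0% to 18.5%). In cattle–yak against the 18-month yak the 0 lower became 1 with DESeq2 (9.34%) and 1 with all 12 libraries (10.1%). Without 1 library 0 to 1 were called higher (0% to 7.22%) and 0 to 1 lower (0% to 8.04%). The model of all 12 libraries assumes 1 spread for all groups.

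Signs turned in cattle–yak against the 18-month yak, where the groups overlap. Without 1 library at a time the log2 fold change ran from -2.83 to 4.80 for PIWIL1, -0.385 to 0.0858 for PIWIL2, -0.877 to 0.0532 for MAEL and -0.341 to 0.237 for ASZ1. It ran from -1.24 to 0.459 for TDRD1, -2.93 to 0.181 for TDRD6 and -1.10 to 0.359 for TDRD9. The highest value came without 18-month replicate 2, except that of PIWIL2, which came without replicate 3. PIWIL1 also turned to 1.01 and 1.97 with limma at pseudocounts of 1 and 0.1 and to 2.56 with the block. PIWIL2 turned to 0.026 and 0.0318 with limma, and ASZ1 to 0.0187 by library size, 0.15 and 0.16 by limma and 0.0079 with the block. In cattle–yak against the 6-month yak PIWIL4 turned to 0.37 by library size and to 0.24 and 0.44 by limma, and ran from -0.366 to 0.285 without 1 library. The log2 ratio of PIWIL1 to PIWIL2 from 6 to 18 months ran from -1.36 (without 18-month replicate 2) to 3.29 without 1 library.

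The replicate numbers did not pair the samples: correlations between libraries of the same number ran from -0.33 to 0.16 over the 5 comparisons. The block on the replicate number changed no other count of the 8 genes called. Over all genes it moved the calls from 6 to 18 months from 3 to 235 higher and from 7 to 303 lower, and in cattle–yak against the 18-month yak from 542 to 1 higher and from 368 to 0 lower. Depth limits PIWIL1 at 6 months, where a library held as few as 3 counts. With 3 libraries per group, a difference that was not called is not shown to be absent.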
